A study of Drosophila melanogaster with 2 samples.

Results

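The binding of Cnc was described at 8 regulators of the juvenile hormone response and of late metamorphosis: Met, gce, tai, Kr-h1, Sox14, Eip93F, Blimp-1 and Mical. They are 8 of the 13945 protein-coding genes annotated on the 6 chromosomes studied. The genes were selected on their roles and on the peak calls and signal values of these same data, which were already known, so all counts and levels given here are a description and none was tested. A gene was found by its symbol in the Ensembl annotation of the dm6 build, and a peak was given to it when the summit lay in the gene body or within 5000 bp of either end. A summit within 1000 bp of any annotated transcription start site (TSS) of the gene was called a promoter summit, and every other one a distal summit.

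Chromatin immunoprecipitation and sequencing had been done on whole Drosophila melanogaster larvae of the third instar, both sexes pooled, at the wandering stage that ends larval life, in 2 biological replicates of 1 group. All larvae were of the transgenic strain cnc-GFP, which stably expresses Cnc, a basic leucine zipper factor of the Nrf2 family, with GFP fused at its C terminus, and the antibody was directed against GFP. No other genotype, stage or treatment was analysed here, and the labels do not say whether the untagged protein was also present. Because whole animals were used, a peak held in a few cells of one tissue cannot be told apart from a weaker one held in many.

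Juvenile hormone keeps an insect larva larval through successive molts. It enters cells and binds Met or gce, paralogous receptors of the bHLH-PAS family, which act with the coactivator tai on targets such as Kr-h1, a zinc finger factor that holds back metamorphosis. When the hormone falls, pulses of the steroid ecdysone turn on a later set of factors. Sox14 and the actin-disassembling enzyme Mical serve the pruning of sensory neuron dendrites, Eip93F (E93) directs adult differentiation, and Blimp-1 is a repressor that times the expression of ftz-f1.

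The sequence at 10 of the summits described below is shown first, so that each can be read beside its gene. Windows of Sox14, whose promoter peak was the highest of all, and of Eip93F are not shown. Each line is the plus strand of dm6 from 50 bp before to 50 bp after a reproducible summit, taken from the RefSeq assembly of the same build. Capitals mark a match on either strand to GAGAG (the GAGA factor motif), to CACGCG (an E-box form bound by the mosquito Met) or to the word ACAGTGG, which was picked after these windows had been read.
Met, distal, chrX:11623036-11623136: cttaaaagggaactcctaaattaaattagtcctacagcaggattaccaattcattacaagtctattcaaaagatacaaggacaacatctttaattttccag
gce, promoter, chrX:15298439-15298539: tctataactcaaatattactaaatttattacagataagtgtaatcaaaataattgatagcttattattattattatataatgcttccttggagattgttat
gce, distal, at Top1, chrX:15323358-15323458: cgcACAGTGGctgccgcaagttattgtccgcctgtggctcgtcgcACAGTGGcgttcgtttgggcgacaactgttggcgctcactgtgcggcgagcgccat
tai, promoter, chr2L:9166593-9166693: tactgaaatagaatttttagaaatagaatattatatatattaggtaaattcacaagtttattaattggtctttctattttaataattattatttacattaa
tai, intron, chr2L:9168460-9168560: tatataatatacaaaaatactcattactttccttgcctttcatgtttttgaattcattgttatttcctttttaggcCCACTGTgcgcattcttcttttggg
tai, intron, chr2L:9173551-9173651: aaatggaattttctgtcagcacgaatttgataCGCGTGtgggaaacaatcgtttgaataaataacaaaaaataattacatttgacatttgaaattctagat
tai, intron, chr2L:9211363-9211463: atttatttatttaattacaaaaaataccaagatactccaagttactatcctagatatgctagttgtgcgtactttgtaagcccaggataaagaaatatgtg
Kr-h1, promoter, chr2L:6082212-6082312: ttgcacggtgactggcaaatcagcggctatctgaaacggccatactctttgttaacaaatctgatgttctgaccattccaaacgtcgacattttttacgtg
Kr-h1, intron, chr2L:6088575-6088675: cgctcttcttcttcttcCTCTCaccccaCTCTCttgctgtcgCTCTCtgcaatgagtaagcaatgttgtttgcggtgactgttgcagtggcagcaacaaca
Mical, promoter, chr3R:10043137-10043237: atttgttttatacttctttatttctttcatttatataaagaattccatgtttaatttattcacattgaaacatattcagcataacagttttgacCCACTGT
The windows shown were not alike in composition. The tai promoter window was the poorest in G and C of all the genes' windows, at 14.9%, and the tai, gce and Mical promoter windows read as runs of A and T. The Kr-h1 intron window held 3 GAGA matches on one side of its summit, and the window at Top1 held ACAGTGG in 2 copies.

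Summits were counted in 4 peak lists that the authors deposited. The reproducible list held 6153 peaks kept by the irreproducible discovery rate (IDR), a measure of how well peaks rank alike between replicates, and all of them were also in the pooled list of 30000 peaks called on both replicates together. Each replicate had a list of its own, again of 30000 peaks. The height of a peak is the signal value of the authors' peak caller, a score whose scale is not stated and which was compared only within a list. Its median was 353 in the reproducible list and 106 in the pooled list, and the lowest value in the reproducible list was 206. The long lists were permissive: the pooled peaks outside the reproducible list had a median −log10 q of 0.522. The lists give no read numbers, and their depth is therefore unknown.

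The 8 genes held 27 reproducible summits, 7 at promoters and 20 distal. A reproducible promoter summit was present at 5 of the 8 genes (gce, tai, Kr-h1, Sox14 and Mical), and at 31.9% of all protein-coding genes. Any reproducible summit in reach was present at 7 of the 8, Blimp-1 being the exception, and at 56.5% of all protein-coding genes. In the pooled list a promoter summit was found at 7 of the 8 genes, Eip93F being the exception, against 56.1% of all genes, and a summit anywhere in reach at 8 of 8 against 78.8%. Since these peak calls were known when the genes were chosen, nothing is read from the difference between these shares.

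**Figure D1:**
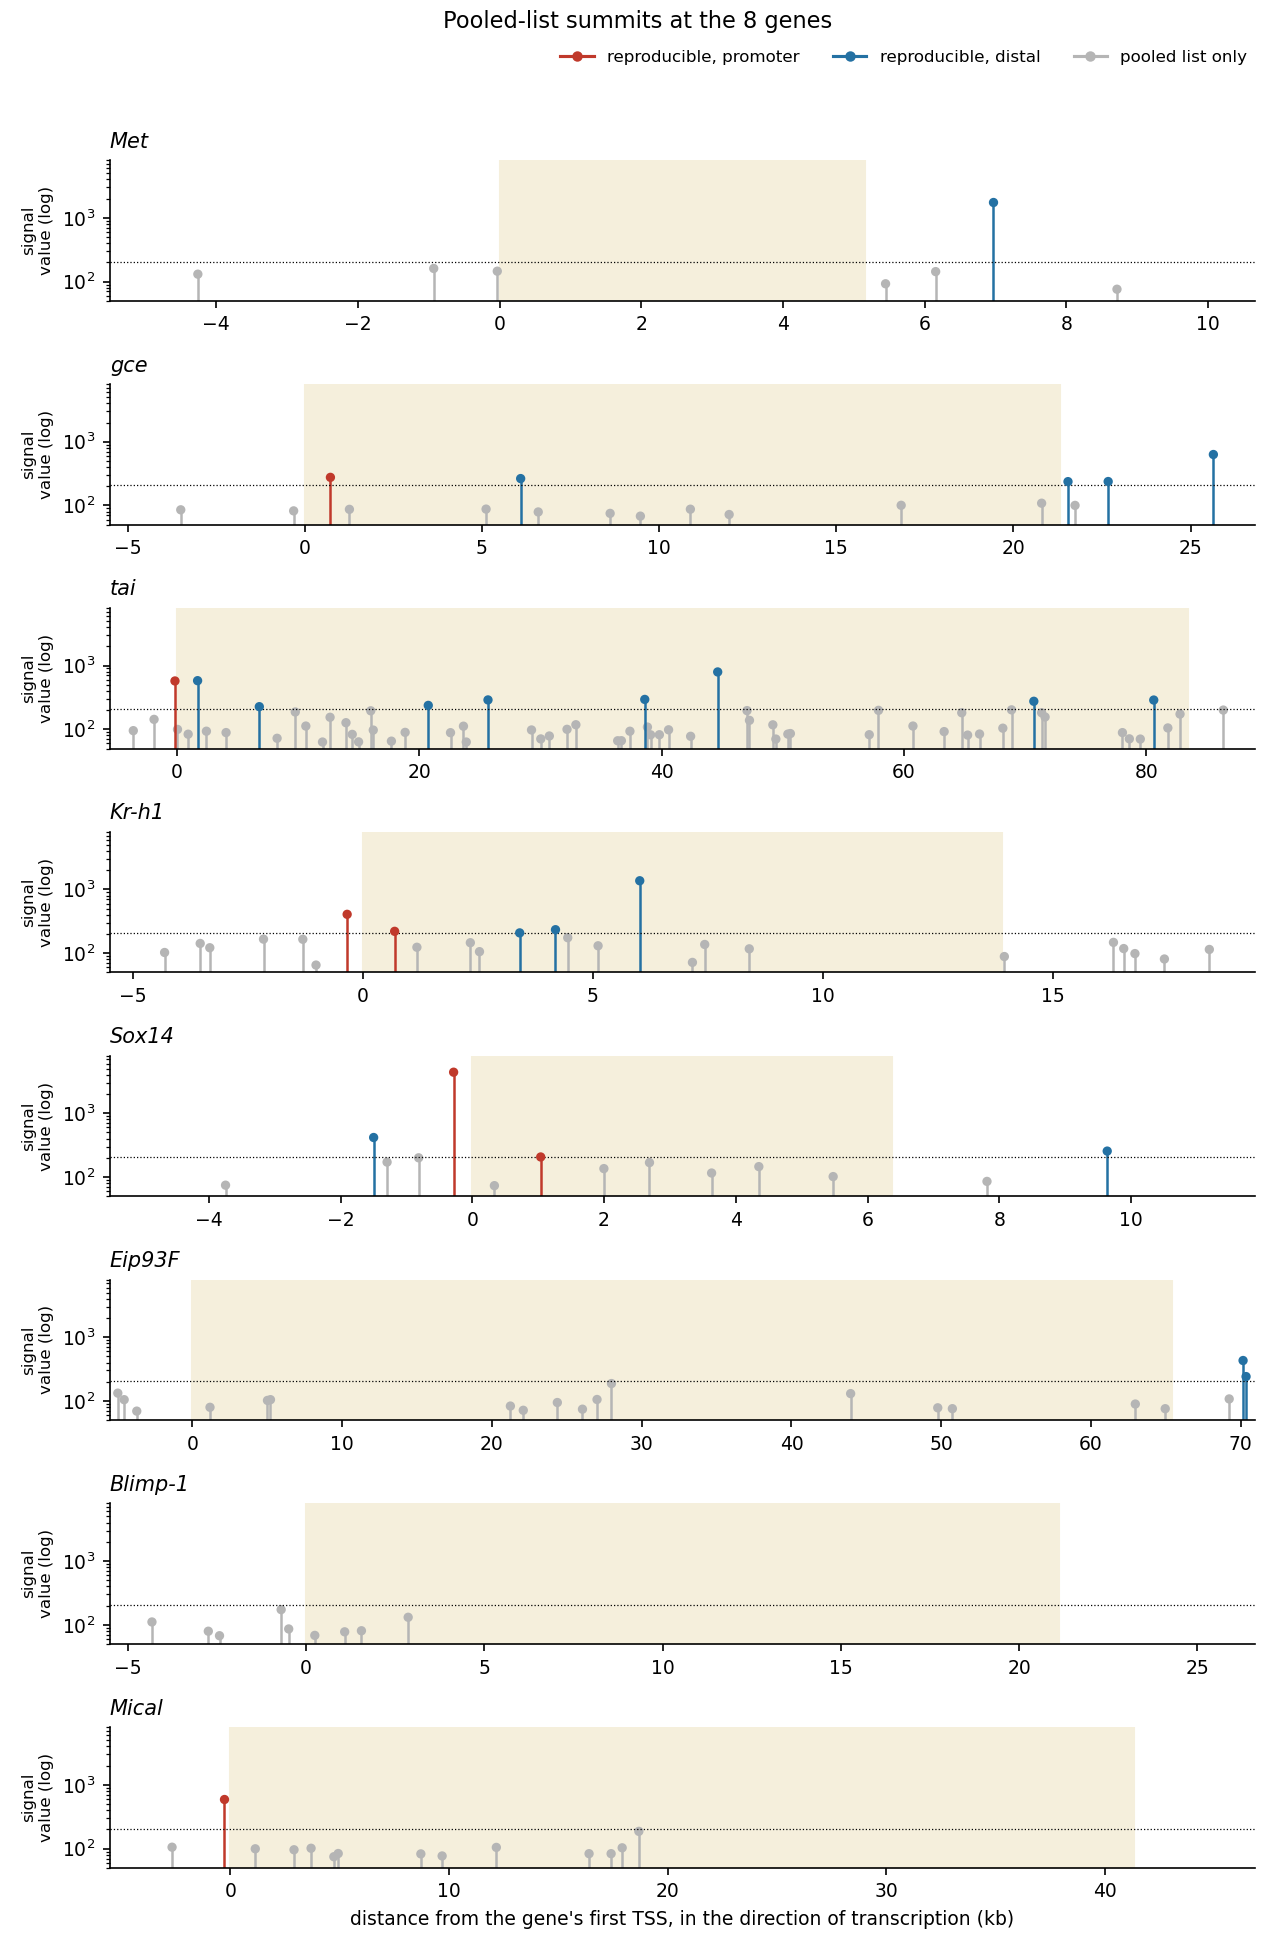
Each panel is 1 gene, with the distance from its first TSS in kb in the direction of transcription on the horizontal axis and the signal value of the pooled list on a log vertical axis. The shaded span is the gene body, red and blue points are reproducible promoter and distal summits, grey points are summits in the pooled list only, and the dotted line is the lowest signal value of the reproducible list. The highest points are the Sox14 promoter peak at 4409, the peak past the 3′ end of Met at 1744 and the Kr-h1 intron peak at 1368.

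The genes differed in the length searched. Gene body and flanks came to a median of 31.2 kb for the 8 genes and 12.2 kb for all protein-coding genes. Per kb, the 8 genes had a median of 0.0812 reproducible summits, from 0 at Blimp-1 to 0.244 at Sox14, and all protein-coding genes had a median of 0.0625. In the pooled list the medians were 0.502 and 0.278 summits per kb. The long gene tai, with 93.4 kb searched, held 66 of the 172 pooled summits, and the compact Kr-h1, with 23.9 kb, had the highest pooled density, 1.05 per kb. Eip93F lay at the other end with 0.265 per kb over 75.4 kb. Overlapping peaks were counted apart in these numbers, and merging them took the 172 pooled summits to 148.

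**Figure D2:**
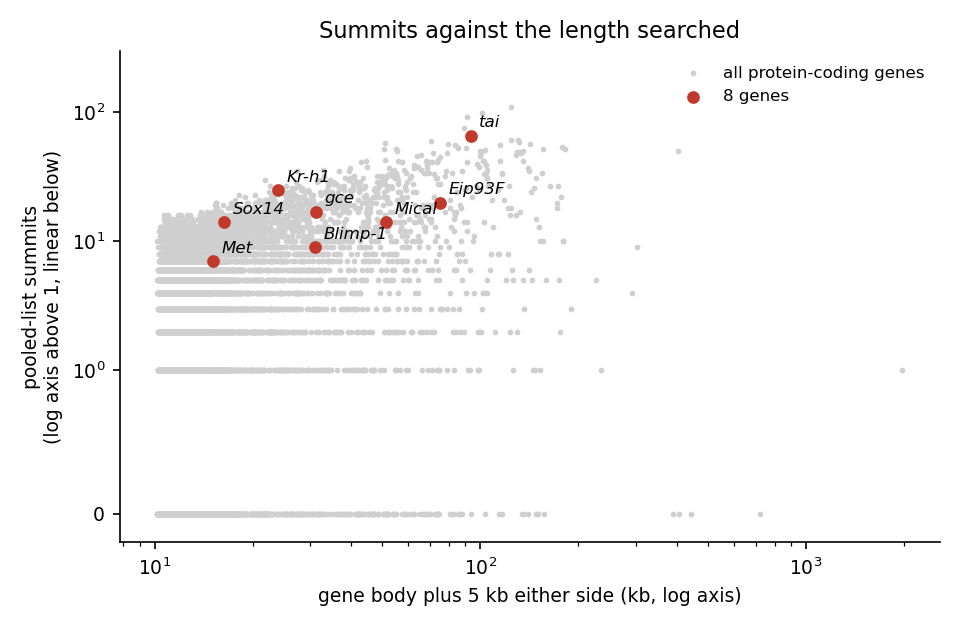
The horizontal axis is the length of each gene body with its flanks in kb on a log axis, and the vertical axis is the number of pooled-list summits in it, on an axis that is log above 1 and linear below. Grey points are all 13945 protein-coding genes and red points the 8 genes. The 8 genes run from 7 summits at Met to 66 at tai, and Eip93F, with 20 summits over 75.4 kb, sits lower for its length than Kr-h1, with 25 over 23.9 kb.

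Met (FBgn0002723, chrX:11616124-11621280, plus strand) encodes one of the juvenile hormone receptors and has 1 annotated TSS. It had no reproducible promoter summit. Its single reproducible peak, at chrX:11622927-11623272, had a signal value of 1744 in the pooled list (rank 170 of 30000), 1027 in replicate 1 (rank 177) and 724 in replicate 2 (rank 202). It was thus high in both replicates, the second highest peak among the 8 genes. The summit lay 1806 bp past the 3′ end of Met, however, inside Ptp10D and 1071 bp downstream of the TSS of that gene, which encodes a receptor tyrosine phosphatase. With the gene body alone as the reach, Met kept no reproducible summit. At the Met promoter itself the pooled list held 2 summits below the reproducible range. The one 33 bp upstream of the TSS had a signal value of 146 (rank 9703), with 52.8 in replicate 1 and 53.6 in replicate 2. The TSS of the divergent gene RPA3 also lay within 1000 bp of this summit. The one 930 bp upstream had 161 (rank 8516), with 77.4 in replicate 1 and 46.3 in replicate 2, and lay nearer to the TSS of RPA3, a subunit of the single-strand DNA binding complex. In both replicates both of these peaks ranked below the highest 6153.

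The paralog gce (FBgn0261703, chrX:15297766-15319074, plus strand) had 5 reproducible summits, 1 at a promoter. The promoter peak lay in an intron 723 bp downstream of the first TSS and 520 bp upstream of the second. A start of the non-coding gene asRNA:CR44429 also lay within 1000 bp of its summit. The signal value of the peak was 276 in the pooled list (rank 4243), 132 in replicate 1 (rank 4684) and 166 in replicate 2 (rank 3080). It was the lowest of the highest promoter peaks of the 5 genes that had one, at rank 3542 of the 4449 genes with a reproducible promoter summit. A peak of similar height, 264 in the pooled list, lay farther inside the gene, 3349 bp downstream of its nearest TSS, with 127 in replicate 1 and 107 in replicate 2.

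The other 3 reproducible summits of gce lay past its 3′ end, each within 1000 bp of a TSS of Top1, which encodes DNA topoisomerase I and is transcribed in the same direction. The strongest of them was 183 bp upstream of an internal Top1 start and had 630 in the pooled list (rank 1283), 444 in replicate 1 (rank 892) and 223 in replicate 2 (rank 2028). Its window, at 63.4%, was the richest in G and C among the 27. The other two stood at 236 and 237 in the pooled list and were carried by opposite replicates. The summit 174 bp upstream of the Top1 gene had 49.1 in replicate 1 (rank 14421) and 138 in replicate 2 (rank 4001). The one 70 bp inside a Top1 start had 122 in replicate 1 (rank 5103) and 48.1 in replicate 2 (rank 17629).

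The coactivator gene tai (FBgn0041092, chr2L:9166778-9250211, plus strand) had 9 reproducible summits, more than any other of the 8, over a gene body of 83434 bp. Of these 7 were in introns, 1 in the 3′ UTR and 1 at the promoter. The promoter summit lay 135 bp upstream of the first TSS, with 573 in the pooled list (rank 1498), 375 in replicate 1 (rank 1168) and 231 in replicate 2 (rank 1919). The divergent gene CG9586 starts 129 bp from the same summit, so the peak cannot be assigned to one of the pair. The highest peak of the locus was not at the promoter but deep in the gene, 35055 bp from the nearest tai TSS, at chr2L:9211263-9211546. It had 794 in the pooled list (rank 859), 364 in replicate 1 (rank 1226) and 407 in replicate 2 (rank 706). The peak 1732 bp into the gene matched the promoter peak in height, at 579 in the pooled list, 336 in replicate 1 and 268 in replicate 2.

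The other 6 distal summits of tai were of low signal, from 227 to 294 in the pooled list, all below the median of the reproducible list. The one with the Met-type E-box match, 2757 bp upstream of the second TSS, had 149 in replicate 1 (rank 4081) and 52.2 in replicate 2 (rank 15711). The replicates thus placed it far apart. The intron summit 61132 bp downstream of the nearest tai TSS had 275 in the pooled list, 174 in replicate 1 (rank 3397) and 70.8 in replicate 2 (rank 10112). The start of a threonine tRNA gene lay within 1000 bp of it.

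Kr-h1 (FBgn0266450, chr2L:6082603-6096498, plus strand), the target gene of the receptors, had 5 reproducible summits. Its highest was an intron peak at chr2L:6088539-6088712, 6022 bp downstream of the first TSS and 2787 bp upstream of the second, a start shared with CG45075. The signal value was 1368 in the pooled list (rank 289), 807 in replicate 1 (rank 286) and 641 in replicate 2 (rank 266), so the replicates ranked it nearly alike. This is the window with 3 GAGA matches. The promoter peak, 341 bp upstream of the first TSS, was lower and uneven, with 407 in the pooled list (rank 2559), 71.9 in replicate 1 (rank 9274) and 264 in replicate 2 (rank 1558). That value of replicate 1 is of the higher of 2 overlapping peaks, with its summit 228 bp away; the other, with its summit at nearly the same base as the reproducible one, had 53.1 (rank 13188). A second promoter summit, 692 bp downstream of the same TSS in the 5′ UTR, ranked higher in replicate 1. It had 220.2 in the pooled list, 205 in replicate 1 (rank 2800) and 89.1 in replicate 2 (rank 7292). The replicate 1 summit lay 67 bp from it and the replicate 2 summit 204 bp, so these values may be of different sites. The remaining intron peaks stood at 208 and 234 in the pooled list, close to the lowest value of the reproducible list.

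**Figure D3:**
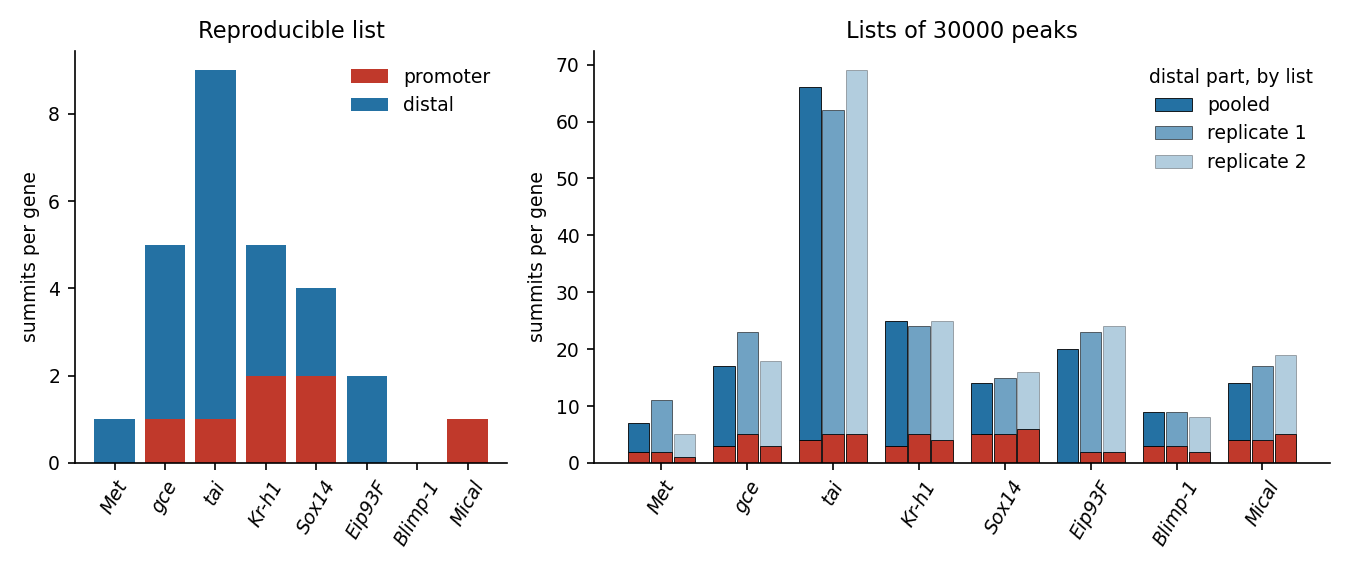
Bars are the number of summits per gene, red for promoter and blue for distal, in the reproducible list on the left and in the 3 lists of 30000 peaks on the right. In the reproducible list tai had 9 summits, gce and Kr-h1 5 each, and Blimp-1 none, while in the longer lists every gene had at least 5.

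Sox14 (FBgn0005612, chr2R:23978801-23985177, plus strand), a transcription factor gene turned on by ecdysone, carried the highest peak of the 8 genes and had 4 reproducible summits. The peak 283 bp upstream of its first TSS had 4409 in the pooled list (rank 10), 2499 in replicate 1 (rank 18) and 2063 in replicate 2 (rank 8). The list of replicate 2 split it, with another summit of 1243 (rank 54). No other coding gene started within 1000 bp of it. Among the 4449 genes ranked by their highest reproducible promoter peak, Sox14 was at rank 8, below ph-p at 4935 and above CG5611 and Mtl, which both had 4368. The second promoter summit, 55 bp upstream of the third TSS in the 5′ UTR, was in contrast the lowest reproducible peak of all 8 genes, with 206 in the pooled list (rank 6122), 99.9 in replicate 1 and 153 in replicate 2.

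The distal summits of Sox14 both sat at starts of its neighbours. One, 1497 bp upstream of Sox14, was 49 bp upstream of the TSS of PPP1R15, which encodes a regulatory subunit of protein phosphatase 1, and had 417 in the pooled list (rank 2446), 255 in replicate 1 and 162 in replicate 2. The other, 3262 bp past the 3′ end, was 16 bp from the TSS of Phm, which encodes a peptide-amidating enzyme. A TSS of Pask also lay within 1000 bp of it. This summit had 255 in the pooled list, 99.2 in replicate 1 (rank 6476) and 74.2 in replicate 2 (rank 9472). It was the single reproducible summit of the 27 that lay outside the highest 6153 peaks of both replicate lists.

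**Figure D4:**
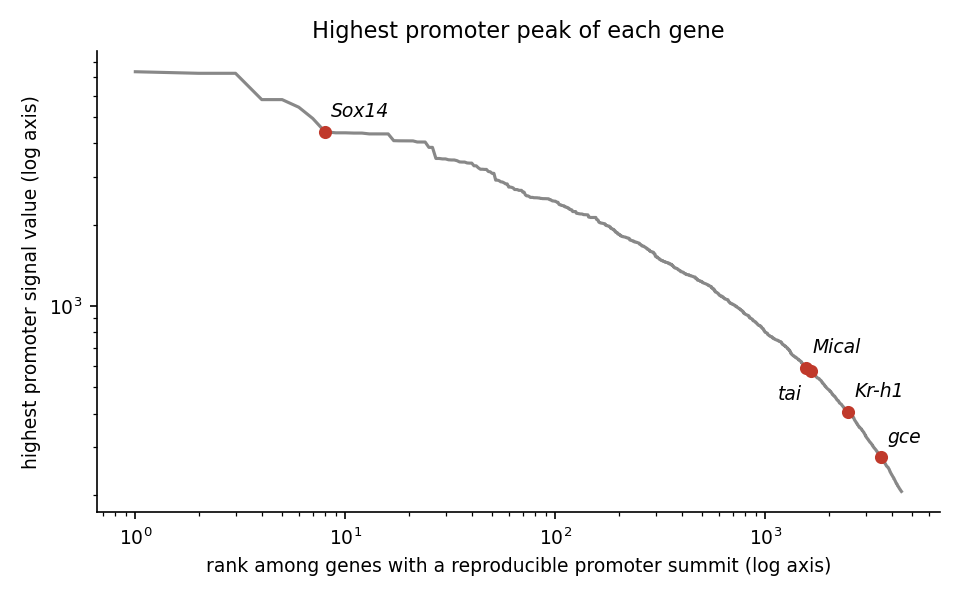
The line gives the highest reproducible promoter signal value of each of the 4449 genes that have one, in falling order, with both axes logarithmic. The red points are the 5 genes with such a peak: Sox14 at 4409, Mical at 592, tai at 573, Kr-h1 at 407 and gce at 276.

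Eip93F (FBgn0264490, chr3R:21949114-22014539, plus strand) had 2 reproducible summits, neither at a promoter. They lay 4723 and 4923 bp past its 3′ end and 78 and 80 bp upstream of starts of Idh3b, which encodes a subunit of mitochondrial isocitrate dehydrogenase. Their peaks overlapped each other and count as 1 region when merged. Replicate 1 held a single peak there, and replicate 2 a peak for each summit. The higher had 430.1 in the pooled list (rank 2344), 267 in replicate 1 (rank 1943) and 189 in replicate 2 (rank 2594), and the lower had 241 in the pooled list (rank 5061) and 179.6 in replicate 2 (rank 2788). Within the gene body of 65426 bp, the highest pooled peak was in an intron, with 187 (rank 6969), 97.0 in replicate 1 (rank 6638) and 75.8 in replicate 2 (rank 9192). At the promoters the pooled list had no summit. The replicate lists held 2 each, with signal values of 34.0 (rank 21986) and 29.7 (rank 25530) in replicate 1 and of 35.2 (rank 26272) and 34.4 (rank 27041) in replicate 2.

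Blimp-1 (FBgn0035625, chr3L:5630983-5652094, plus strand) had no reproducible summit, and the nearest one lay 19027 bp beyond the gene, with 817 in the pooled list. Its highest pooled peak was 697 bp upstream of the first TSS, with 173 (rank 7733), 42.0 in replicate 1 (rank 17283) and 114 in replicate 2 (rank 5247). The replicate 1 summit lay 273 bp from the pooled one and the replicate 2 summit 9 bp from it. An intron peak of 131 in the pooled list also ranked higher in replicate 2, with 29.8 in replicate 1 (rank 25438) and 130 in replicate 2 (rank 4360). Here the replicate 1 summit lay 318 bp away and the replicate 2 summit 10 bp away. For both peaks the replicate 1 value may therefore be of a neighbouring site. Other Blimp-1 peaks ranked higher in replicate 1. The highest peak of replicate 1, in an intron, had 85.5 (rank 7606) and no counterpart in replicate 2. A pooled peak 4321 bp upstream of the gene had 61.2 in replicate 1 (rank 11169) and 46.9 in replicate 2 (rank 18207). That value of replicate 2 is of an overlapping peak with its summit 218 bp away. Another, with its summit at nearly the same base as the pooled one, had 38.5 (rank 23613). Of the highest 6153 peaks of each list, replicate 2 placed 2 at Blimp-1 and replicate 1 placed none.

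Mical (FBgn0053208, chr3R:10001554-10042895, minus strand) encodes a flavoprotein that takes actin filaments apart and had 1 reproducible summit for 6 annotated starts. The peak at chr3R:10043015-10043305 lay 292 bp upstream of the first TSS and had 592 in the pooled list (rank 1417), 373 in replicate 1 (rank 1178) and 236 in replicate 2 (rank 1862). The divergent gene CG3909 starts 83 bp from the summit. At the inner starts, the highest pooled peak was 938 bp from a TSS and had 187 (rank 6997), below the reproducible range. Its summit lay inside CG31407 and nearer to the TSS of that gene, at 604 bp. The Mical and tai promoter peaks resembled each other in height, in both replicate ranks and in lying between divergent starts. They held ranks 1567 and 1644 of the 4449 genes by promoter peak. The genes next to Mical in that order were CG7737 above and Rfk and kipf below, and those next to tai were beta4GalNAcTB and Cpsf100 above and CG31955 and CG2818 below. For Kr-h1 they were CG11367 and CG14450 above and norpA below, and for gce they were nst above and CG6180 and CG15484 below.

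The summits also differed in where they lay. Of the 27 reproducible summits 12 were in introns, 5 upstream, 7 downstream, 2 in a 5′ UTR and 1 in a 3′ UTR. The nearest coding TSS was the gene's own for 15 summits and another gene's for 12, and in 9 of these 12 the other start was within 1000 bp. A start shared with another gene was counted as the gene's own, as at the Kr-h1 intron peak, whose nearest start is shared with CG45075. All 7 summits past a 3′ end, those of Met, gce, Sox14 and Eip93F, had a neighbour's TSS as the nearest one. The 11 distal summits in introns lay in tai, Kr-h1 and gce, most of them in tai, the longest of the 8 genes. In the pooled list Sox14, Eip93F, Blimp-1 and Mical had distal summits in introns too. Shares of these locations over all reproducible peaks were not counted, so nothing is read from them. Of the 7 promoter summits 6 were upstream of the nearest start of the gene, the exception being the 5′ UTR summit of Kr-h1.

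Both replicate lists had a peak overlapping each of the 27 reproducible peaks, as they had for 97.6% of all reproducible peaks. Where several overlapped, the highest was taken. Within the highest 6153 peaks of its own list, replicate 1 held 22, replicate 2 held 21 and both held 17, against 83.7%, 83.0% and 72.7% of all reproducible peaks. The summits of these replicate peaks lay a median of 28 bp and at most 228 bp from the reproducible summit. The median was 42.5 bp for promoter summits and 22.5 bp for distal ones. Ranks were higher in replicate 1 for 19 summits and in replicate 2 for 8, and of all reproducible peaks 46.7% ranked higher in replicate 1 and 50.8% in replicate 2. Among the distal summits the split was 16 and 4, and among the promoter summits it was 3 and 4. All reproducible peaks were not divided into promoter and distal for this count, so these 2 splits have no share beside them. The reproducible list was itself made from the replicate lists, so their overlap is no separate evidence.

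**Figure D5:**
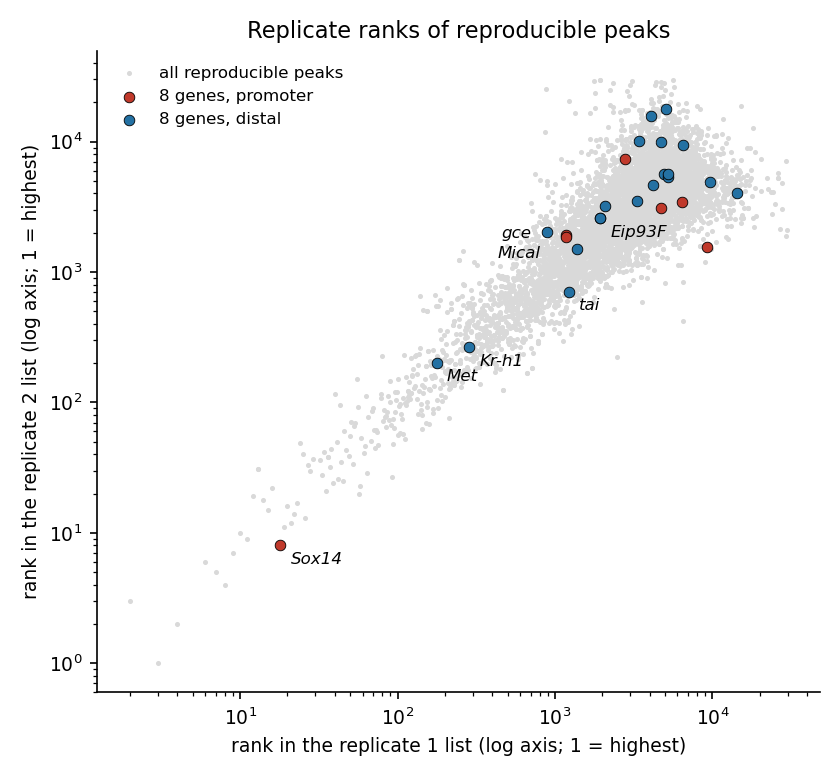
The axes are the rank of a peak in the replicate 1 list and in the replicate 2 list, both logarithmic, with 1 the highest signal value. Grey points are all reproducible peaks with a peak in both lists, and red and blue points are the promoter and distal summits of the 8 genes, with the highest peak of each gene named. Sox14 (18 and 8), Met (177 and 202) and Kr-h1 (286 and 266) lie near the diagonal, and the first promoter peak of Kr-h1 (9274 and 1558) lies far from it.

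Of the 172 pooled summits at these genes 15.7% were in the reproducible list, against 20.5% of all pooled peaks. The share was 29.4% at gce, 28.6% at Sox14 and 20.0% at Kr-h1. It was 14.3% at Met, 13.6% at tai and 7.14% at Mical, with 2 of 20 summits at Eip93F and 0 of 9 at Blimp-1. The thresholds fell close to some peaks. The lowest reproducible peak of the 8 genes, at Sox14, had 206 and the highest one outside the list, at tai, had 202. The farthest promoter summit, at Kr-h1, was 692 bp from a TSS and the nearest distal one, at Sox14, was 1497 bp away. The farthest summit inside the reach was 4923 bp from Eip93F, and the nearest one outside it was 6199 bp from Mical.

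Motif letters were searched on both strands within 50 bp of each summit, and a match is a description of letters, not of a bound factor. The Cnc-Maf motif TGACNNNGC matched in none of the 27 windows of these genes and in 2.73% of all 6153 reproducible windows. The nuclear receptor element AGGTCA and the E-box CACGTG also matched in none, against 1.82% and 0.813% of all windows. The Met-type E-box CACGCG matched in 1 window, in tai, against 1.59%. GAGAG matched in 5 windows, 2 in tai, 2 in Kr-h1 and 1 in Sox14, against 11.0%. The window at the PPP1R15 start near Sox14 held both the AP-1 type motif TGANTCA (2.47% of all windows) and the DRE motif TATCGATA (2.70%), the site of the promoter factor DREF. In all, 20 of the 27 windows and 79.0% of all reproducible windows held none of the 7 motifs, the strongest peaks of Met, gce, tai and Mical among them. The Sox14 promoter window held none of the 7 either.

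A word not on that list was picked after these windows had been read, so nothing is read from its count among them. ACAGTGG was in 3 of the 27 windows, the Top1 peak of gce, the first intron peak of tai and the Mical promoter, and in 2.86% of all reproducible windows against 1.45% of flanking windows. Among words of 7 letters in at least 100 summit windows, ATCGATA had the highest ratio of summit to flanking share. This word, which overlaps the DRE motif, was in 5.80% of all windows and 1.2% of flanking ones. Among the 27 it was in 2, both of them the Sox14 distal summits at starts of neighbouring genes. The median content of G and C was 37.6% in the 27 windows and 33.7% in all reproducible windows.

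The rest of the pathway was read from 4 lists of 28 genes in all, of which 14 had a reproducible promoter summit (31.9% of all protein-coding genes), 25 any reproducible summit in reach (56.5%) and 21 a pooled promoter summit (56.1%). The genes were listed with results of these data known, so the lists' counts are set beside these shares and not read further. Among 9 genes of hormone synthesis and breakdown, 6 had a reproducible promoter summit. Among these were the mevalonate pathway genes Hmgs (233) and Fpps (543) and the juvenile hormone epoxide hydrolases Jheh1 (847), Jheh2 (406) and Jheh3 (226), by signal value in the pooled list. The other three genes of that list, the methyltransferase gene jhamt of the last steps of hormone synthesis, the esterase gene Jhe and its duplicate Jhedup, had none. Replicate values at Jheh1 were 357 in replicate 1 and 583 in replicate 2. The promoter summits of Hmgs and Fpps each had the TSS of another coding gene within 1000 bp, as had that of Jheh3, while those of Jheh1 and Jheh2 did not.

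Among 9 hormone-linked genes and receptor partners, 4 had a reproducible promoter summit and all 9 a summit in reach. They were JhI-1, annotated as RNaseZ (739), the chaperone gene Hsp83 (249.9), the acetyltransferase gene nej (537) and brm, the ATPase of a chromatin remodeling complex. The brm peak, shared with the start of Arl1, had 2494 in the pooled list, 1703 in replicate 1 and 833 in replicate 2, which is below the Sox14 promoter peak and above all others at the 8 genes. Among 4 stage specifiers and timing genes, ftz-f1 (254) and Hr3 (394) had a reproducible promoter summit. For br and chinmo, whose reproducible summits were all distal, the highest had 848 and 900.0. Among 6 genes of dendrite pruning, Cul1 (431) and IKKepsilon (495) had one, while kat-60L1 had 3 distal summits of which the highest had 3142. The highest promoter summits of JhI-1, Hsp83, Hr3, Cul1 and IKKepsilon also had the TSS of another coding gene within 1000 bp. Those of nej and ftz-f1 did not. Whether the distal summits of br, chinmo and kat-60L1 lay at starts of neighbouring genes was not looked up. None of these lists was independent of earlier results on the same data.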

How the data were processed

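Peak lists from Cnc-eGFP chromatin immunoprecipitation in 2 biological replicates of 1 group were used as deposited. Per the deposited file lists, the authors called peaks on each replicate and on both together against a control, and kept a reproducible list by an IDR threshold; all used here are on dm6. The signal value is a score of the authors' peak caller, and the deposited −log10 q is the caller's own. For the aligner, the caller and the threshold, names and values are not stated in the labels. The signal values were compared within a list or by rank. Lists on dm3 were not used, and no coordinates were converted.

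Summits were assigned to genes of Ensembl release 115 with Python 3.11.15, numpy 2.4.6 and pandas 2.3.3, and drawn with matplotlib 3.10.9. The assignment was checked on simulated summits. A peak had a replicate peak when they overlapped by at least 1 bp. Motifs and words were counted within 50 bp of the summit. The members and lists were chosen with earlier results of these data known, so no test was made. The genes named are the 8 members, those of the 4 pathway lists with a reproducible promoter summit or named for their absence, neighbours within 1000 bp of a summit, and the genes next in rank. A gene of these lists is counted but not reported here by name. JhI-1 and hdc were matched through older symbols, as RNaseZ and heca. There were 10 alternatives on the reproducible counts. Depth per sample is unknown, so no counting interval is given.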

Additional observations from a re-analysis of the deposited data

How the results depend on the processing

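Of the alternatives on the counts of members and summits, 22 values stayed within 1.5 times the reported count and 4 did not. Giving a summit only to the gene of its nearest coding TSS left 3 members with a promoter summit, 4 with any summit and 15 summits. Keeping the reproducible peaks above the median signal value left 11 summits. For single genes and motifs, 31 values moved by more than 1.5 times and 63 did not. Without replicate 1, with the highest 6153 peaks of replicate 2 in place of the reproducible list, Blimp-1 went from 0 to 2 summits. Without replicate 2, Eip93F went from 2 to 1 and Mical from 1 to 2. With the gene body alone, Met went from 1 to 0 and Eip93F from 2 to 0, and with 10000 bp either side Eip93F went to 5. With a window of 100 bp either side, the Cnc-Maf motif matched in 1 of the 27 windows, against 5.95% of all. The cause of these moves was not tested. No paired analysis was possible because there was 1 group. With 2 replicates and no read numbers, a weak peak cannot be told apart from an absent one at Blimp-1 and Eip93F.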
